A study of Mus musculus with 15 samples.

Results

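A set of 10 genes of fat cells and lipid storage was followed in heart muscle cells of proton-irradiated mice: Scd1 and Fasn, which make fatty acids, Cidec, Plin1 and Cidea, which sit on lipid droplets, the secreted proteins Adipoq, Retn and Cfd, the transcription factor Pparg and the uncoupling protein Ucp1. They were found by symbol among the probe sets of the array that carry 1 gene symbol, with no filter on signal. Of these 10 genes, 9 were found, each with 1 probe set, among 19937 genes in all. Cfd, which encodes the complement protease adipsin, had no such probe set and is not described further. Averaged over all arrays, 8 of the 9 genes had a signal over 5.00, the median of all probe sets, and Adipoq (4.47) did not. On the sham arrays alone the means of Cidec (4.30) and Ucp1 (4.86) were under 5.00 as well.

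Affymetrix Mouse Gene 1.0 ST arrays measured the RNA of cardiomyocytes isolated from the left ventricle with collagenase. The mice were male, 8 to 9 months old and of strain C57Bl/6NT, with no transgene named in the labels, and the irradiated ones received 1 whole-body dose of 90 cGy of 1 GeV protons at 0.17 Gy/min. Days 1, 12 and 26 after exposure had 2 arrays each and days 3 and 5 had 3 each, beside 3 sham arrays, 2 from day 1 and 1 from day 3. The 3 sham arrays served as the control of every day, so the comparisons of the 5 days with sham share them. For days 5, 12 and 26 the sham arrays are of other days, so exposure and time or handling cannot be told apart there. The labels do not say that the arrays came from separate mice, so the spread between arrays may be technical. Proton day 5 replicates 1 and 2 were nearly identical and were averaged, which left 14 samples. The titles give the days used here, while the series' design text gives days 1, 3, 7, 14 and 28.

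White fat cells store triglyceride in a single large droplet, and brown fat cells in many small ones that feed heat production. Heart muscle burns fatty acids and keeps only small droplets of its own, while fat cells lie on the heart's outer surface and around its vessels. Pparg drives the fat cell program, and Scd1, Fasn, Cidec, Plin1, Adipoq and Retn are among the genes that are abundant in mature fat cells, whereas Ucp1 and Cidea are known from brown fat. Fasn assembles long-chain saturated fatty acids, and Scd1 adds a double bond to them before they are stored as triglyceride.

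The 250 bases before a transcript start of Adipoq, Retn, Cidec and Fasn are shown because the signals of these genes varied together across samples, as described further on. Scd1 varied with them, but no promoter sequence of Scd1 was available. The Fasn window lies inside the span given below for that gene, so its start is not the outermost one. The sequences are from RefSeq, build GRCm38.p6, written 5′ to 3′ on the strand of the gene, with the letters CCAAT, on either strand, in capitals.
Adipoq (chr16:23146286-23146535, plus strand): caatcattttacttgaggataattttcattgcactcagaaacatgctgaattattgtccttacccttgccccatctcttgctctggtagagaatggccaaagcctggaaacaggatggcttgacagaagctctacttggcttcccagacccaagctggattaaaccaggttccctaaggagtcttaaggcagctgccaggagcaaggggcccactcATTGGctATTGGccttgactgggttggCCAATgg
Retn (chr8:3655520-3655769, plus strand): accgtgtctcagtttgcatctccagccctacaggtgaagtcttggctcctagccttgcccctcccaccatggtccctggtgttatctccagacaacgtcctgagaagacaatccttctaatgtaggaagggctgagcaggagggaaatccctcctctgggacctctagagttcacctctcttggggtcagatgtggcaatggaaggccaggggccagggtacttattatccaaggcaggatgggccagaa
Cidec (chr6:113435761-113436010, minus strand): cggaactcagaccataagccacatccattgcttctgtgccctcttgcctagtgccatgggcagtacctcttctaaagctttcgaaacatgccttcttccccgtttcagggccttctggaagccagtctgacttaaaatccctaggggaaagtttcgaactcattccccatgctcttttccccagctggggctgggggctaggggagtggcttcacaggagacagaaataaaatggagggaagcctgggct
Fasn (chr11:120824548-120824797, minus strand): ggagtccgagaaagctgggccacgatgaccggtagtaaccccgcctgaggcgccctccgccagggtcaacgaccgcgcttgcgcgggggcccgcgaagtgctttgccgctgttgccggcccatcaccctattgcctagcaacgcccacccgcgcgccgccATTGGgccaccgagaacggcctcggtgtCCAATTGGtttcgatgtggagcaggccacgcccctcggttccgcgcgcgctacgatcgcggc
CCAAT was found 3 times before Adipoq, beginning at -34, -27 and -7 from the start. It was found 3 times before the inner start of Fasn, beginning at -90, -62 and -59 from it, where the last pair overlap. Over 32851 mouse promoters of the same length, 33.8% held CCAAT at least once and 2.79% held it 3 times or more. Neither the Retn nor the Cidec window held a CCAAT or TATAAA box, the E-box CACGTG, the nuclear receptor site AGGTCA or its direct repeat DR1 (up to 2 mismatches), searched on both strands. TATAAA occurred in 12.4% of all promoters, CACGTG in 6.02%, AGGTCA in 14.0% and DR1 in 3.24%. These matches describe letters, not binding.

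At day 26 after protons, Scd1, Cidec, Retn, Fasn and Adipoq had signals 2.20 to 5.13 times those of sham, Plin1 and Ucp1 1.42 and 2.0 times, and Cidea had a lower one. None of the 9 genes passed the test at any day. The test was limma's moderated test on log2 signals, adjusted by Benjamini-Hochberg over all 19937 genes, with a threshold of 0.05. At day 26, 12 of all genes (0.0602%) passed, and the lowest adjusted p among the 9 was 0.20, for Fasn. At day 26, 8 of the 9 log2 differences from sham were above 0, against 60.1% of all genes, and their median was 1.14 against 0.0646 over all genes. That median was 0.38 without day 26 replicate 1 (against 0.064 over all genes) and 0.60 with the score of other heart cells, defined further on, as a covariate. Both day 26 samples lay above all 3 sham arrays for Scd1, Fasn, Cidec, Plin1, Adipoq and Retn, so 6 of 9 did not overlap in that direction, against 22.2% of all genes. At days 1, 3, 5 and 12 the differences above 0 numbered 5, 5, 7 and 7 of 9, against 43.6%, 47%, 51.4% and 48.9% of all genes. With array medians set equal, Adipoq and Cidea were above 0 at day 1 and Fasn below 0 at day 5, and with quantile normalization Adipoq was above 0 at day 1 and Fasn below 0 at days 3 and 5. With the score as a covariate the differences above 0 numbered 1, 5, 4 and 5 on those days, the 1 at day 1 being Cidea. The shares of all genes given here are from the fit without the score. Cidea was the only one of the 9 with both day 26 samples below sham, against 11.4% of all genes. Of the 9 genes, 6 had an unadjusted p under 0.05 with a higher value (Scd1, Fasn, Cidec, Plin1, Retn and Ucp1) and 1 with a lower value (Cidea), against 6.87% and 4.05% of all genes. The genes were chosen with earlier results of these data known, and several vary together on the same arrays. These counts beside all genes are therefore description and not a test.

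**Figure D1:**
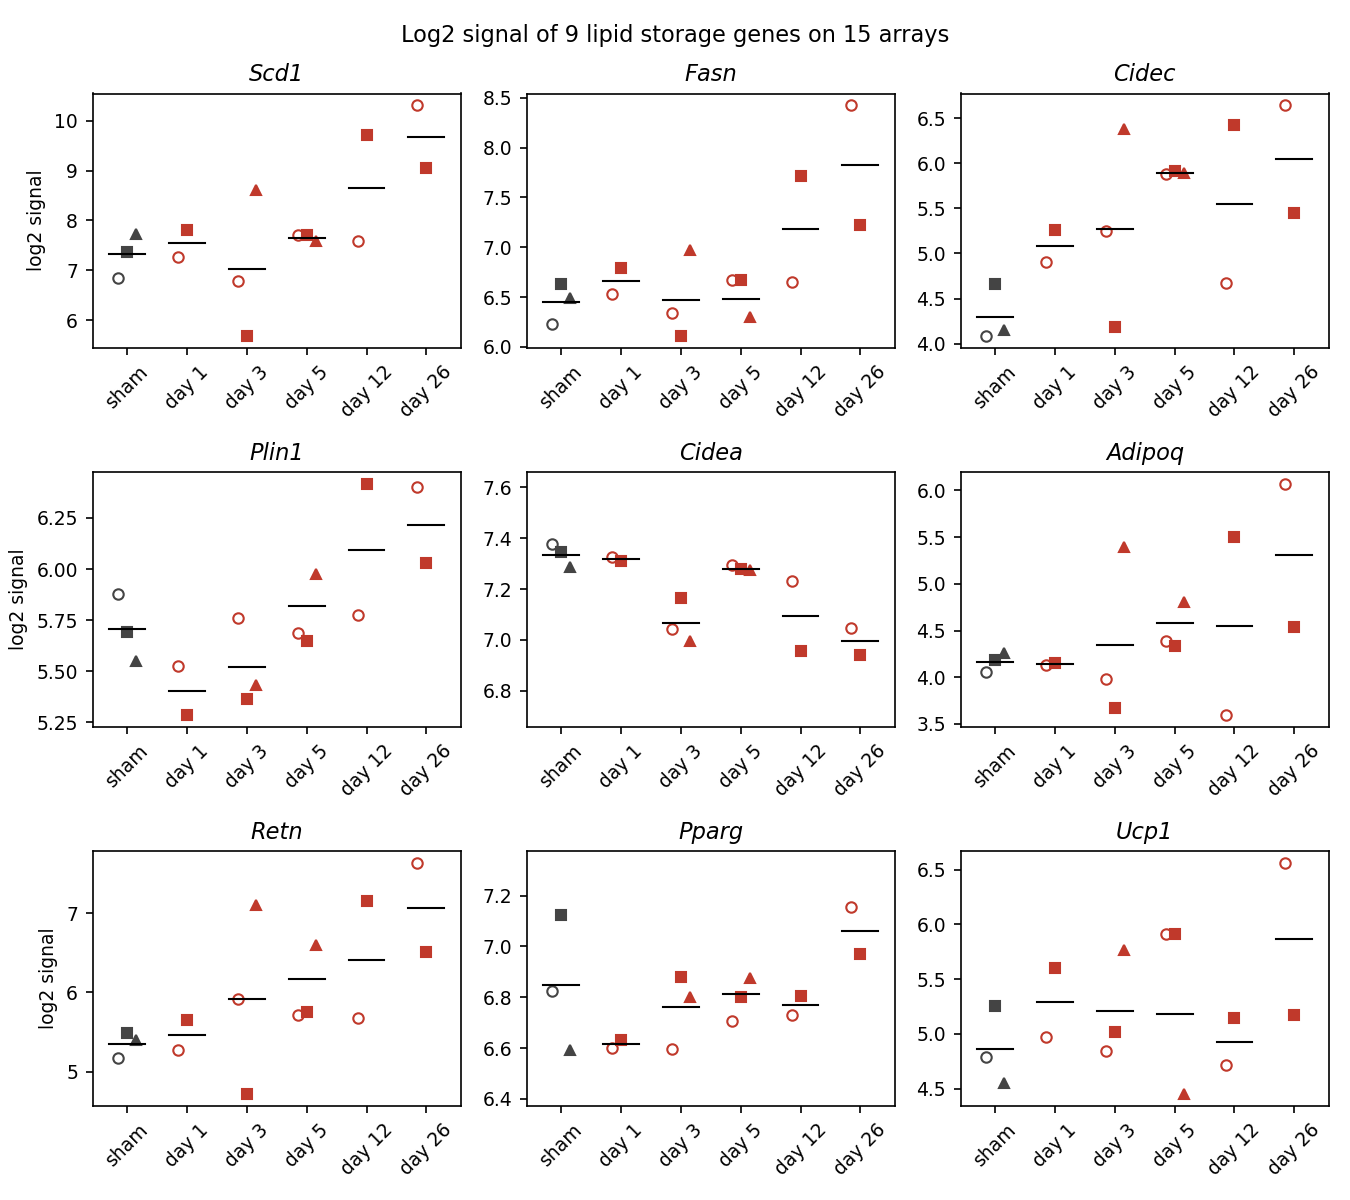
Log2 signal (y axis) of the 9 genes on the 15 arrays, by group (x axis: sham, then proton days 1, 3, 5, 12 and 26). Marker shape gives the replicate number and the black line the group mean after averaging day 5 replicates 1 and 2. The sham array of day 3, whose title has no number, is drawn with the shape of replicate 3. Scd1 reaches 10.31 at day 26 while its sham arrays end at 7.73; the y axes differ between genes.

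Scd1 (chr19:44394450-44407709), the delta-9 desaturase, had the widest spread of the 9 genes (positions here and below are those of RefSeq genes on GRCm38.p6), 4.64 log2 units from lowest to highest sample. On the sham arrays its log2 signal was 6.85, 7.37 and 7.73, and day 1 gave 7.27 and 7.81. Day 3 arrays stood at 6.78, 5.68 and 8.60, and day 5 arrays at 7.71, 7.71 and 7.58. The late arrays read 7.58 and 9.71 at day 12, then 10.31 and 9.04 at day 26. Both day 26 arrays were above every sham array, only 1 of the 2 day 12 arrays was, and the day 3 arrays lay on both sides of sham. The log2 difference from sham on days 1, 3 and 5 was 0.22 ± 0.71 (SE), -0.30 ± 0.64 and 0.32 ± 0.71. Day 12 was 1.32 ± 0.71 above sham, and day 26 was 2.36 ± 0.71 above it, a 5.13-fold higher signal (limma, adjusted p = 0.272). Without day 12 replicate 2 the day 12 difference was 0.26, and without day 26 replicate 1 the day 26 difference was 1.72.

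Fasn (chr11:120805958-120825166), fatty acid synthase, followed the same order of samples at the top. Its log2 signal was 6.23, 6.63 and 6.49 on sham arrays, with 6.54 and 6.79 at day 1. At day 3 it was 6.34, 6.11 and 6.97, and day 5 had 6.67, 6.67 and 6.30. Day 12 had 6.66 and 7.72, and day 26 had 8.43 and 7.22. The day 12 and day 26 arrays all lay above sham, day 12 replicate 1 barely so. The log2 difference was 0.73 ± 0.35 (SE) at day 12 and 1.37 ± 0.35 at day 26, a 2.59-fold higher signal (limma, adjusted p = 0.745 and 0.20). At days 1, 3 and 5 it was 0.21, 0.02 and 0.03, each within its SE of 0.35, 0.32 and 0.35. Without day 12 replicate 2 the day 12 difference was 0.20, and without day 26 replicate 1 the day 26 difference was 0.77.

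Among the droplet proteins, Cidec (FSP27; chr6:113424634-113435760), which lets lipid droplets fuse, had a positive difference from sham at every day. Sham arrays had log2 signals of 4.08, 4.66 and 4.15, and day 1 gave 4.90 and 5.26. Day 3 arrays stood at 5.25, 4.19 and 6.38, and day 5 arrays at 5.87, 5.91 and 5.89. The late arrays read 4.67 and 6.42 at day 12, then 6.64 and 5.45 at day 26. Day 3 replicate 2 was the only irradiated array that lay within the sham range, and day 12 replicate 1 lay just above it. Both day 1 arrays were above sham, for 1 of the 9 genes, against 11.2% of all genes. The log2 difference on days 1, 3 and 5 was 0.78 ± 0.57 (SE), 0.97 ± 0.51 and 1.59 ± 0.57, and on days 12 and 26 it was 1.25 ± 0.57 and 1.75 ± 0.57. With the score of other heart cells as a covariate the day 1 difference was -0.12. Leaving out day 3 replicate 3 gave 0.42 for day 3, leaving out day 12 replicate 2 gave 0.37 for day 12, and leaving out day 26 replicate 1 gave 1.15 for day 26. The day 26 value is a 3.36-fold higher signal (limma, adjusted p = 0.306). The mean of the 5 days was 1.27 ± 0.41 above sham (limma, adjusted p = 0.433), where 3 of all genes (0.015%) passed. At day 5, where 6 of all genes passed (0.0301%), the adjusted p of Cidec was 0.623; all day 5 samples lay above sham for Cidec, Adipoq and Retn, 3 of 9 genes against 14.6% of all genes.

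Plin1 (chr7:79721164-79732904), perilipin 1, which coats the droplet of fat cells and controls access of lipases, separated the late from the early irradiated days. Its log2 signal was 5.88, 5.69 and 5.55 on sham arrays, with 5.53 and 5.29 at day 1. At day 3 it was 5.76, 5.36 and 5.43, and day 5 had 5.69, 5.65 and 5.98. Day 12 had 5.78 and 6.42, and day 26 had 6.40 and 6.03. All 4 arrays of days 12 and 26 lay above all 5 arrays of days 1 and 3, while the day 12 arrays overlapped sham. Late days (12 and 26, averaged) minus early days (1 and 3, averaged) came to 0.69 ± 0.16 (SE; limma, adjusted p = 0.206), the lowest adjusted p of the 9 genes in that comparison, where 1 of all genes (0.00502%) passed. Of the 9 genes, Plin1 alone had late samples all above early samples, against 1.34% of all genes. Its difference from sham was -0.30 ± 0.21 at day 1, with both arrays below sham (1 of 9 genes, against 15.8% of all genes), and 0.51 ± 0.21 at day 26, where it was 0.32 without replicate 1.

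Cidea, a droplet protein of brown fat related to Cidec, had lower values on days 3, 12 and 26, within a narrow range. Sham arrays had log2 signals of 7.38, 7.35 and 7.29, and day 1 gave 7.33 and 7.31. Day 3 arrays stood at 7.04, 7.17 and 7.00, and day 5 arrays at 7.30, 7.28 and 7.27. The late arrays read 7.23 and 6.96 at day 12, then 7.05 and 6.94 at day 26. All arrays of days 3, 12 and 26 lay below all sham arrays, and Cidea was the only 1 of the 9 genes to do so at day 3, against 4.73% of all genes, and at day 12, against 11.9%. The log2 difference on days 3, 12 and 26 was -0.27 ± 0.10 (SE), -0.24 ± 0.11 and -0.34 ± 0.11 (limma, adjusted p = 0.577, 0.745 and 0.300). On days 1 and 5 it was -0.02 and -0.06, and the day 1 value was 0.042 with equal array medians. At day 3, 1 of all genes (0.00502%) passed, and at days 1 and 12 none did (0%), while 5.37% and 6.62% of all genes had an unadjusted p under 0.05 at days 1 and 12.

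Adipoq (chr16:23146536-23157968), which encodes the fat cell hormone adiponectin, was highest in day 26 replicate 1 and day 12 replicate 2, as was Scd1. Its log2 signal was 4.06, 4.19 and 4.25 on sham arrays, with 4.14 and 4.15 at day 1. At day 3 it was 3.99, 3.67 and 5.39, and day 5 had 4.39, 4.33 and 4.81. Day 12 had 3.60 and 5.50, and day 26 had 6.07 and 4.54. In 3 irradiated samples the signal was 5.39 or higher, and in day 3 replicates 1 and 2 and day 12 replicate 1 it was below every sham array. The log2 difference on days 5, 12 and 26 was 0.42 ± 0.57 (SE), 0.38 ± 0.57 and 1.14 ± 0.57 (limma, adjusted p = 0.927, 0.902 and 0.487). Without day 26 replicate 1 the day 26 difference was 0.38, and without day 12 replicate 2 the day 12 difference was -0.57. The day 5 difference was 0.19 without replicate 3.

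Retn (chr8:3655770-3659818), which encodes resistin, a hormone of mouse fat cells, had the second-highest spread of residuals among the 9 genes. Sham arrays gave log2 signals of 5.18, 5.48 and 5.40, and day 1 gave 5.28 and 5.65. Day 3 arrays stood at 5.92, 4.72 and 7.11, and day 5 arrays at 5.72, 5.75 and 6.60. The late arrays read 5.68 and 7.15 at day 12, then 7.63 and 6.51 at day 26. Every sample of days 5, 12 and 26 lay above every sham array, and day 12 had 3 such genes of the 9 (Retn, Cidec and Fasn) against 9.09% of all genes. On days 5, 12 and 26 the log2 difference was 0.81 ± 0.57 (SE), 1.06 ± 0.57 and 1.71 ± 0.57, a 3.28-fold higher signal at day 26 (limma, adjusted p = 0.834, 0.754 and 0.320). Leaving out 1 array gave 0.38 for day 5 (without replicate 3) and 0.32 for day 12 (without replicate 2). The resistin-like gene Retnlg, a neutrophil gene, differed by -0.04 ± 1.00 at day 26 and by 1.91 ± 1.00 at day 1, and did not pass at either (limma, adjusted p = 0.991 and 0.815).

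Pparg (chr6:115360879-115490404), the nuclear receptor of the fat cell program, stayed within a range of 0.56 over the 14 samples. Its log2 signal was 6.83, 7.12 and 6.59 on sham arrays, with 6.60 and 6.63 at day 1. At day 3 it was 6.60, 6.88 and 6.80, and day 5 had 6.71, 6.80 and 6.88. Day 12 had 6.73 and 6.81, and day 26 had 7.15 and 6.97. The sham arrays alone spanned 0.53, and every day overlapped them. The difference from sham ran from -0.23 ± 0.15 (SE) at day 1 to 0.22 ± 0.15 at day 26 (limma, adjusted p = 0.815 and 0.611).

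Ucp1 (chr8:83290348-83298456), the brown fat protein that uncouples respiration, had a high value on single arrays of several days. The log2 signal was 4.79, 5.25 and 4.55 on sham arrays, and day 1 gave 4.97 and 5.60. Day 3 arrays stood at 4.84, 5.01 and 5.76, and day 5 arrays at 5.91, 5.91 and 4.45. The late arrays read 4.71 and 5.14 at day 12, then 6.56 and 5.17 at day 26. Every day overlapped sham, and day 5 replicate 3 was the lowest sample of all while the averaged pair of the same day was the second highest. The difference was 1.00 ± 0.46 (SE) at day 26 (limma, adjusted p = 0.450) and between 0.06 and 0.42 on the other days. At day 26 it was 0.31 without replicate 1 and 0.60 with the score of other heart cells as a covariate.

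**Figure D2:**
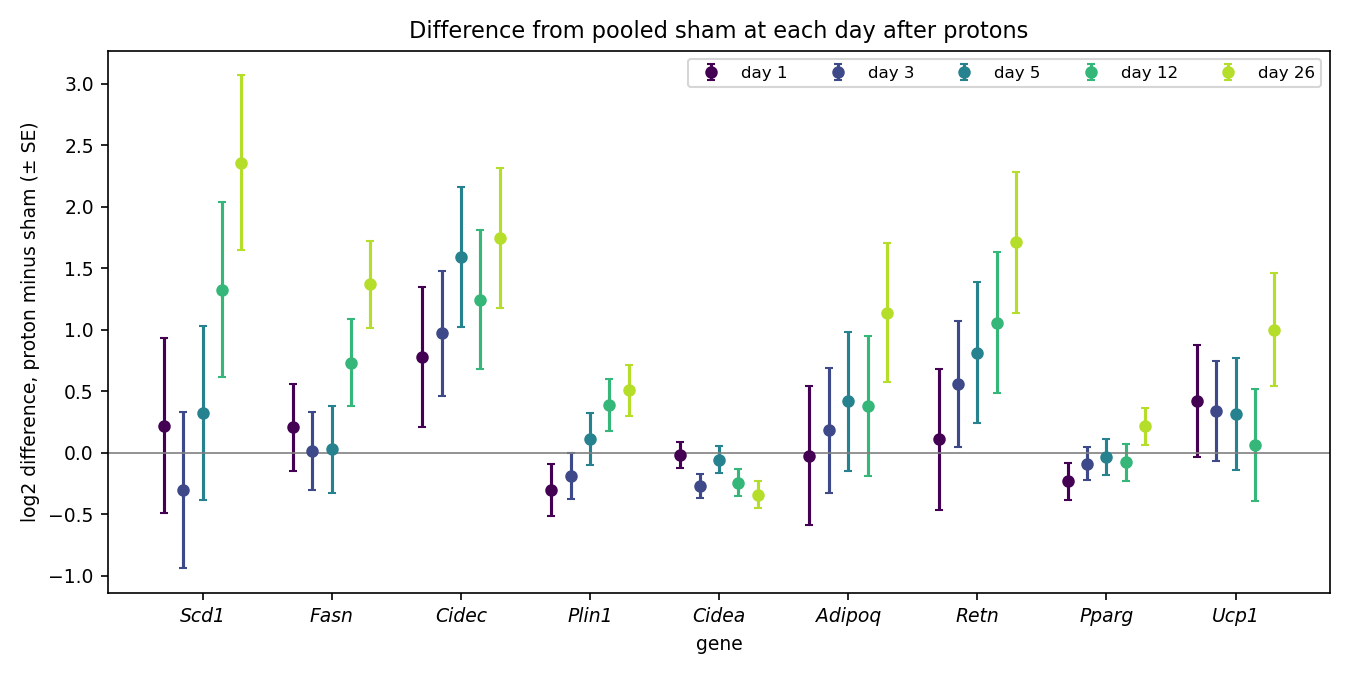
Log2 difference from the pooled sham (y axis, with bars of 1 SE of the fit) for each of the 9 genes (x axis) at the 5 days after protons, which share the same sham arrays. Scd1, Fasn, Cidec and Retn lie highest at day 26, at 2.36, 1.37, 1.75 and 1.71, and Cidea at -0.34.

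Differences between irradiated days, a comparison chosen after the data were seen, do not use the sham arrays. Over the 10 pairs of days, the lowest adjusted p among the 9 genes was 0.165, for Fasn at day 26 against day 3 (1.35 ± 0.35, SE), followed by Scd1 in the same pair (2.66 ± 0.71, adjusted p = 0.173; limma), where 12 of all genes (0.0602%) passed. The F-test over all 5 days against sham gave a lowest adjusted p of 0.560 (Fasn), with 4 of all genes (0.0201%) past it, and the F-test among irradiated days 0.597 (Plin1), with none past it (0%) and 6.71% of all genes at an unadjusted p under 0.05 (limma). Between late and early days, 8 of 9 differences were above 0, against 61.4% of all genes. They included Scd1 at 1.88 ± 0.53, Retn at 1.05 ± 0.43 and Fasn at 0.94 ± 0.26 (limma, adjusted p = 0.272, 0.435 and 0.272). The median over the 9 was 0.68, against 0.0506 over all genes; it was 0.21 without day 12 replicate 2, 0.32 without day 26 replicate 1 and 0.35 with the score of other heart cells as a covariate.

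Replicates of a group were far apart for most of these genes. The residual SD of the fit was 1.00 for Scd1, 0.80 for Retn, 0.78 for Cidec, 0.77 for Adipoq, 0.62 for Ucp1 and 0.48 for Fasn, against a median of 0.214 over all genes. These values stood between the 94.36th and the 99.82nd percentile of all genes. Plin1 (0.25, percentile 60.54), Pparg (0.16, percentile 31.49) and Cidea (0.089, percentile 6.2) did not have that spread.

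A few samples held most of the high values. Day 26 replicate 1 was among the 3 highest of the 14 samples for 8 of the 9 genes and the highest of all for 7. Day 12 replicate 2 was among the 3 highest for 6 genes, and day 3 replicate 3 and day 26 replicate 2 for 4 each. Day 3 replicate 2 was among the 3 lowest for 6 genes. No sham array was among the 3 highest for Scd1, Fasn, Cidec, Plin1, Adipoq, Retn or Ucp1.

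**Figure D3:**
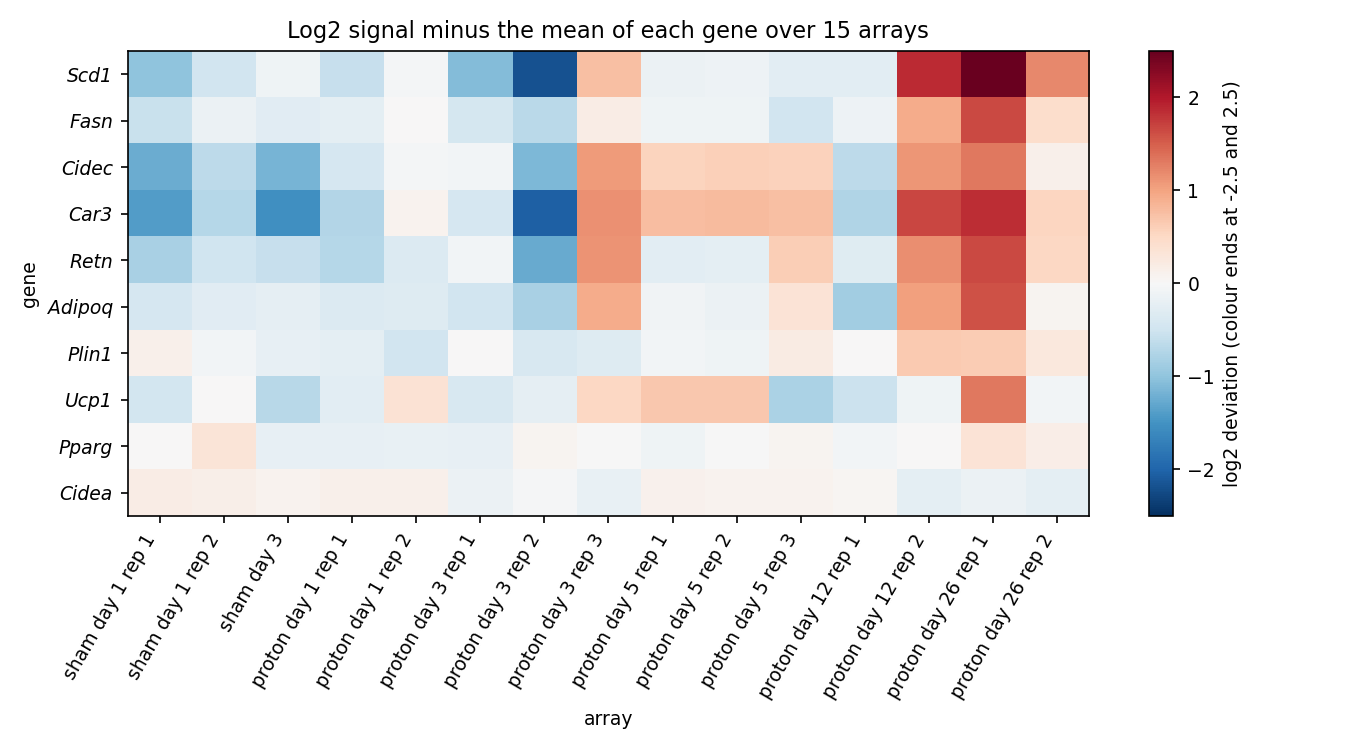
Log2 signal minus the gene's mean over the 15 arrays (colour) for the 9 genes and Car3 (rows) on each array (columns, by group). Day 26 replicate 1, day 12 replicate 2 and day 3 replicate 3 stand above the mean for Scd1, Fasn, Cidec, Car3, Retn and Adipoq together, and day 3 replicate 2 stands below it.

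Scd1, Fasn, Cidec, Retn and Adipoq varied together. Over the 14 samples, which share the arrays' scaling, the 10 pairs among these 5 genes had Pearson's r from 0.73 to 0.94 and Spearman's rho from 0.67 to 0.91. Taken as deviations from the group means, so that day and treatment are removed, r was from 0.79 to 0.96. Without the 2 samples farthest from the median of the first gene of a pair, r was from 0.48 to 0.91. Cidea ran against these 5 genes, with r from -0.70 (Retn) to -0.56 (Adipoq). Pparg and Plin1 followed the 5 genes less closely, with r from 0.28 (Pparg and Cidec) to 0.69 (Plin1 and Scd1). Ucp1 had r from 0.50 (Retn) to 0.70 (Fasn) with the same 5.

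Car3, carbonic anhydrase 3, an abundant protein of fat cells and skeletal muscle, had r = 0.98 with Cidec over 14 samples, its highest with any of the 9 genes. Its log2 signal was 6.32, 7.00 and 6.18 on sham arrays, with 6.99 and 7.82 at day 1. At day 3 it was 7.30, 5.68 and 8.86, and day 5 had 8.49, 8.51 and 8.48. Day 12 had 6.97 and 9.39, and day 26 had 9.56 and 8.25. All samples of days 5 and 26 were above sham, and the same arrays as for Cidec were high. The difference from sham was 2.41 ± 0.78 (SE) at day 26 (limma, adjusted p = 0.304).

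The suspension could also hold other heart cells, and endothelial, fibroblast and macrophage markers varied with Scd1, Fasn, Cidec, Retn and Adipoq across samples. Cardiomyocyte markers had a list mean between 11.5 and 11.6 on every sample, in 14 of 14 measured genes. Lists of endothelial, fibroblast and macrophage markers were held to genes with a mean signal above the median of all probe sets. A score of other heart cells was taken as the mean log2 deviation over these lists. It ran from -0.48 to -0.065 on sham, from 0.12 to 0.50 at day 1, from -0.72 to 0.53 at day 3, from -0.062 to 0.10 at day 5, from -0.29 to 0.73 at day 12 and from 0.051 to 0.48 at day 26. The score was highest in day 12 replicate 2 (0.73) and day 3 replicate 3 (0.53) and lowest in day 3 replicate 2 (-0.72). Over the 14 samples its r was 0.78 with Scd1, 0.77 with Cidec, 0.76 with Adipoq, 0.73 with Retn and 0.71 with Fasn, and 0.36 with Plin1, 0.23 with Pparg and -0.31 with Cidea. As deviations from the group means, r was 0.92 with Cidec, 0.90 with Adipoq, 0.89 with Scd1, 0.89 with Retn and 0.80 with Fasn. On that measure it was 0.57 with Ucp1, 0.39 with Pparg, 0.36 with Plin1 and -0.61 with Cidea.

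At day 26, the difference from sham was above 0 for 12 of 12 endothelial markers (median 0.50), 11 of 12 fibroblast markers (0.55) and 13 of 13 macrophage markers (0.53), and none of them passed the test. Over all genes 60.1% were above 0 at day 26, with a median of 0.0646. At day 1 the medians of these 3 lists were 0.52, 0.51 and 0.56. The median of the 9 genes was 0.11 at day 1 and 1.14 at day 26. Between sham and day 26 the list means ran from 7.44 to 7.87 and from 7.79 to 8.36 for endothelial markers, and from 6.83 to 7.20 and from 7.36 to 7.81 for fibroblast markers. For macrophage markers they ran from 6.23 to 6.69 and from 6.93 to 7.10. Atrial markers had differences above 0 at day 26 in 8 of 8 genes (median 0.78, none past the test), with list means from 6.19 to 6.93 on sham and 7.17 to 8.37 at day 26, the highest being day 26 replicate 1. Lymphocyte markers had a median of 1.10 with 10 of 10 above 0 and none past the test, and list means from 4.57 to 4.93 on sham and 5.95 to 5.97 at day 26. Mesothelial markers had 12 of 12 above 0 (median 0.39) and mural markers 9 of 10 (0.41), with list means that overlapped at 6.33 to 7.35 and 7.27 to 7.36 for mesothelial markers, and that stood at 6.75 to 7.05 on sham and 7.08 to 7.57 at day 26 for mural ones. Neutrophil markers had 6 of 14 above 0 (median -0.053), with list means of 4.36 to 5.26 on sham and 4.54 to 4.71 at day 26. Of 10 erythroid markers 3 were measured, and all 3 were below 0 (median -1.79), with list means of 6.61 to 8.31 on sham and 5.37 to 5.97 at day 26. None of these 4 lists had a gene past the test. Without day 26 replicate 1, an alternative for these lists chosen after seeing the data, the medians were 0.24 for endothelial, 0.27 for atrial and 0.15 for mural markers, and 0.37, 0.40 and 1.13 for fibroblast, macrophage and lymphocyte markers.

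With the score of other heart cells as a covariate, the day 26 difference was 1.34 for Scd1, 0.93 for Fasn, 0.92 for Cidec, 0.91 for Retn and 0.35 for Adipoq, against 2.36, 1.37, 1.75, 1.71 and 1.14 without it. The score ran from -0.48 to -0.065 on sham and from 0.051 to 0.48 at day 26, so score and day cannot be fully told apart there. The part of these cells in the values was not tested. In such bulk RNA, fewer cells of a type and less RNA per cell cannot be told apart.

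**Figure D4:**
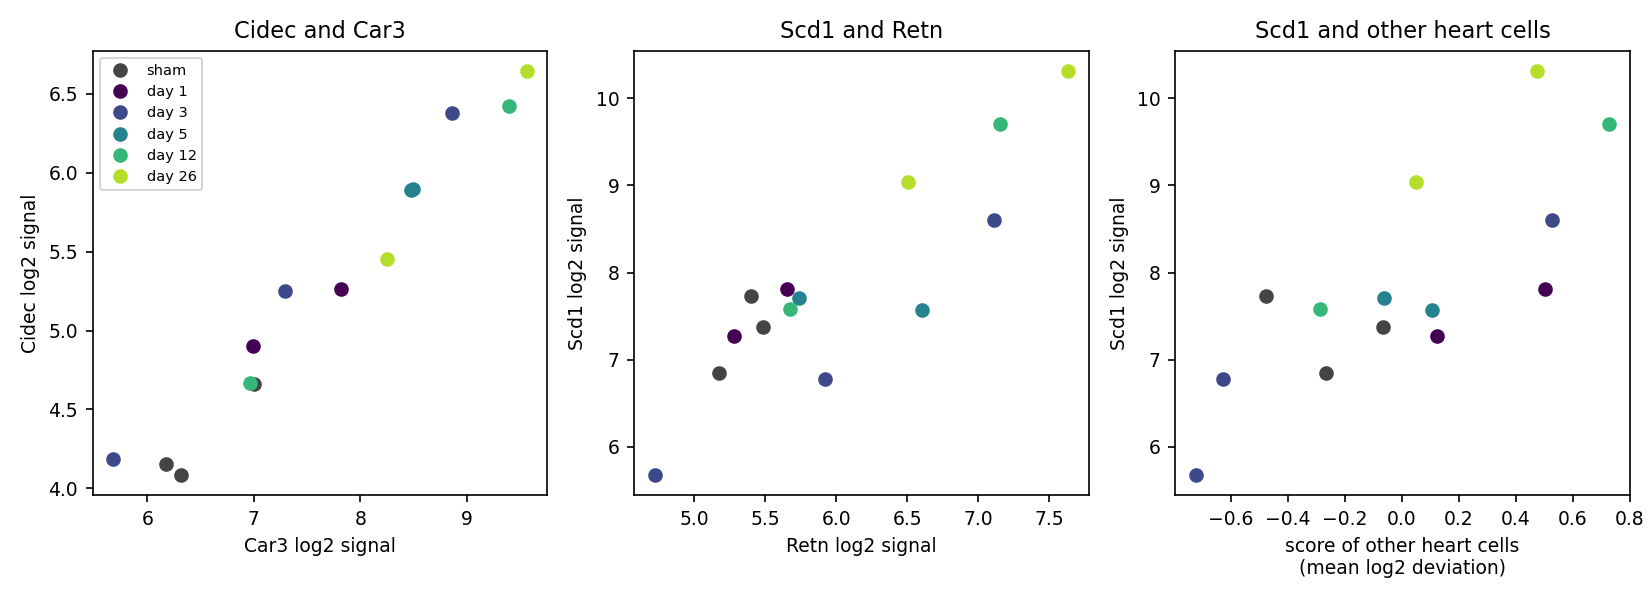
Log2 signals of 14 samples, coloured by group: Cidec (y) against Car3 (x), Scd1 (y) against Retn (x), and Scd1 (y) against the score of other heart cells (x, mean log2 deviation). The points rise together in each panel, with r of 0.98, 0.89 and 0.78.

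Scd1 and Fasn were each among the 5 genes whose signals were most like the other's. Among 12102 genes with a mean above the median of all probe sets, the 5 highest r over 14 samples for Scd1 were Slc25a1 (0.96), AW112010 (0.95), Tkt (0.94), Fasn (0.94) and Sipa1 (0.94). For Fasn they were Tkt (0.97), Scd1 (0.94), Slc25a1 (0.93), Mtpn (0.92) and Gabpb1 (0.91). Slc25a1 is the mitochondrial citrate carrier that exports the carbon used for fatty acid synthesis, and Tkt is transketolase of the pentose phosphate pathway. Tkt had a log2 difference of 1.06 ± 0.29 (SE) at day 26, with both samples above sham (limma, adjusted p = 0.227). For Adipoq the nearest genes were Ifi27 (0.94), Ace (0.93), Gata2 (0.93), Atp10a (0.92) and Retn (0.92). Ace is angiotensin-converting enzyme, and Gata2 is a transcription factor of blood and endothelial cells.

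For Pparg the nearest gene was Timp4 (0.92), an inhibitor of matrix metalloproteinases, followed by Sf3b4 (0.84), Mgll (0.84), Sh3bp5l (0.84) and Vps8 (0.80). Timp4 lies on the same chromosome as Pparg, at chr6:115244444-115252205 against chr6:115360879-115490404 (GRCm38.p6). Its difference from sham was 0.61 ± 0.35 (SE) at day 26 (limma, adjusted p = 0.540). For Ucp1 the nearest were Ppp2r1b (0.86), Rnf4 (0.83), Macir (0.81), Ppp1r15b (0.80) and Praf2 (0.80), which are lower values than those of the other 4 genes' first neighbours.

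Of 22 other genes that mark adipocytes, 21 were measured and none passed the test at day 26. Their median difference was 0.20, with 18 of 21 above 0, against 0.0646 and 60.1% over all genes. Besides Car3, Rbp4, the retinol carrier of plasma, differed by 0.83 ± 0.30 (SE), Pck1, the enzyme that supplies glycerol phosphate in fat cells, by 0.75 ± 0.23, and Thrsp (Spot 14), a regulator of fatty acid synthesis, by 0.56 ± 0.16 (limma, adjusted p = 0.363, 0.272 and 0.232). Thrsp was 6.87, 6.96 and 6.89 on sham arrays and 7.73 and 7.20 at day 26, so the groups did not overlap. Fabp4, the fatty acid carrier shared by fat cells and capillary endothelium, differed by 0.09 ± 0.22, and Lep, the hormone leptin, by 0.33 ± 0.24, and both overlapped sham. Rbp4 and Lep had mean signals of 4.28 and 4.20, under 5.00, the median of all probe sets.

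Of the 24 other genes of fatty acid synthesis and its control, 23 were measured, with a median of 0.21 at day 26. Of these 23, 17 were above 0, against 60.1% of all genes, and none passed the test. The elongase Elovl6 differed by 0.65 ± 0.25 (SE), Acly, which makes acetyl-CoA from citrate, by 0.60 ± 0.27, and Acaca, acetyl-CoA carboxylase, by 0.52 ± 0.29 (limma, adjusted p = 0.377, 0.450 and 0.526). The related desaturases differed by 0.56 ± 0.32 for Scd2 and -0.54 ± 0.26 for Scd4, and Srebf1, which controls the pathway, by 0.18 ± 0.14 (limma, adjusted p = 0.541, 0.471 and 0.659).

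The 18 other lipid droplet and lipolysis genes had a median of 0.082 at day 26, close to the 0.0646 of all genes. Of the 18, 12 were above 0, against 60.1% of all genes, and none passed the test. Cideb, the third member of the Cide family, differed by -0.68 ± 0.16 (SE), with both day 26 samples below sham (limma, adjusted p = 0.169). Plin4 differed by 0.41 ± 0.18, Plin5, the droplet coat of heart and oxidative tissue, by 0.08 ± 0.18, and Plin2 by 0.07 ± 0.09 (limma, adjusted p = 0.438, 0.897 and 0.815). The lipases Lipe and Pnpla2 differed by 0.47 ± 0.24 and 0.08 ± 0.10, and overlapped sham. For triglyceride synthesis the median was 0.029 over 15 of 17 genes measured. Of the 15, 9 were above 0, against 60.1% of all genes, and none passed the test.

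Of 20 brown fat genes, 17 were measured, with a median of 0.17 at day 26. Of these 17, 11 were above 0, against 60.1% of all genes, and none passed the test. Ucp3, the uncoupling protein of muscle, differed by -0.69 ± 0.20 (SE), with 6.51 and 6.95 at day 26 against 7.35 to 7.54 on sham (limma, adjusted p = 0.252). Elovl3 differed by 0.50 ± 0.25 and Ppargc1a by -0.14 ± 0.12. PPAR receptors, coactivators and heart target genes had a median of -0.012 over 26 of 30 measured, and none passed. Of these 26, 13 were above 0, against 60.1% of all genes, and 13 below. The targets Angptl4 and Pdk4 differed by 0.69 ± 0.29 and 0.15 ± 0.12. A mixed list of receptors and adaptors, of adiponectin and leptin but also of insulin and natriuretic peptides, had a median of 0.24. Of its 15 genes 13 were measured, 11 of them above 0, against 60.1% of all genes, and none past the test. Among its genes were Klb, the co-receptor of FGF21, at 0.87 ± 0.22, and the adiponectin receptor Adipor1 at -0.20 ± 0.08 (limma, adjusted p = 0.187 and 0.394). Klb and Elovl3 had mean signals of 3.99 and 3.74, under 5.00, the median of all probe sets.

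**Figure D5:**
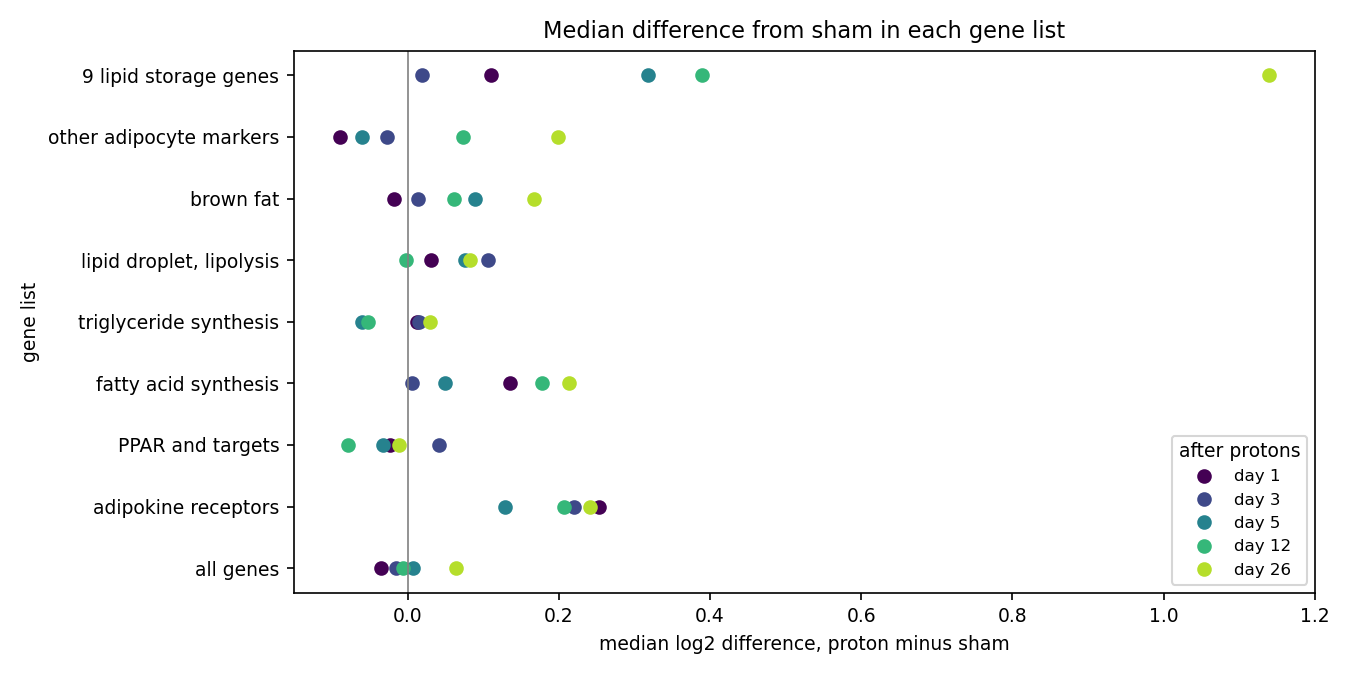
Median log2 difference from sham (x axis) of the 9 genes, of 7 other gene lists and of all genes (y axis) at each day after protons. At day 26 the 9 genes have a median of 1.14, while the 7 other lists shown lie between -0.012 and 0.24. Without day 26 replicate 1 these values are 0.38 and -0.043 to 0.20. Marker lists of cell types are not shown. Among them the highest day 26 medians are 1.10 (lymphocyte) and 0.78 (atrial), and without replicate 1 these are 1.13 and 0.27.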

How the data were processed

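Log2 signals of 34760 probe sets on 15 arrays were deposited. The submitters' processing notes name MAS5; the steps of background correction and normalization are not given in the sources used here, and the deposited log2 values, whose array medians ran from 4.90 to 5.16, were used as they are. Arrays give no count of depth, and their number limits the precision. By the platform annotation 21640 probe sets carried 1 symbol, 1321 several and 11799 none; each gene took its 1-symbol probe set of highest mean (954 genes had several), and positions and promoters came from RefSeq GRCm38.p6.

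Groups follow treatment and the day in the titles. Proton day 5 replicates 1 and 2 were averaged by a rule that asked for an SD of log2 differences under 0.5 times that of any other pair: over probe sets above the median signal it was 0.100 against 0.261 for the next pair, while over all probe sets it was 0.323 against 0.464, which does not meet it. For all 19937 genes, limma 3.58.1 (lmFit, eBayes with a variance trend; R 4.3.3) was run on 14 samples of 6 groups, leaving 8 residual degrees of freedom, with Benjamini-Hochberg adjustment at 0.05; it was tested on simulated data. A fold is 2 to the power of the log2 difference, and ± gives the SE of the fit.

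Genes named are the 10 genes, 28 others listed by name, up to 3 members of each gene list with the largest difference in each comparison, and the 5 genes most correlated with Adipoq, Ucp1, Scd1, Pparg and Fasn. The 10 genes and all lists were chosen with earlier results of these data known. Deviations of same-numbered samples of different groups had a median r of -0.044 over 26 pairs, from -0.47 to 0.25, with 7 above 0.1. In groups of 2 samples the deviations are exact opposites, so these r cannot show that pairing is absent. Numbers were not used as pairs, except in the replicate block. Alternatives covered normalization, signal filters, probe set choice, variance model, array weights, samples and covariates.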

Additional observations from a re-analysis of the deposited data

Results flagged for a closer look

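For 3 of the 9 genes, every sample of 1 irradiated day lay below the sham mean and every sample of another day above it, and these pairs of days are given here. Differences between irradiated days were tested with limma, adjusted over all genes, and none of the 6 pairs passed. Plin1 was higher than at day 1 by 0.69 ± 0.23 (SE) at day 12 and by 0.81 ± 0.23 at day 26 (limma, adjusted p = 1.00 and 0.310). Adipoq at day 5 and day 26 exceeded day 1 by 0.44 ± 0.62 and 1.16 ± 0.62 (limma, adjusted p = 0.991 and 0.532). Pparg at day 26 exceeded day 1 by 0.45 ± 0.16 and day 12 by 0.29 ± 0.16 (limma, adjusted p = 0.404 and 0.965). No group held the 4 samples needed to look for a single sample far from the others.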

How the results depend on the processing

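None of the 9 genes passed in the fit of the report. Leaving out an array of another group, or changing only the variance model, returns the same difference. Many of the values that follow could therefore not change sign. Over 28 other settings, 1652 of 1713 values for single genes kept their sign and their side of the threshold, 54 changed sign and 7 passed. The 7 were, with only the groups compared in the fit, Cidec at day 5 (adjusted p = 0.0202) and Scd1, Retn and Cidec at day 26 (0.0201, 0.0322 and 0.0476), and, with the score of other heart cells as a covariate, Scd1, Fasn and Plin1 in late minus early (1.46, 0.75 and 0.65; adjusted p = 0.0145, 0.0399 and 0.0466; limma throughout). The cause was not tested. Setting equal array medians moved the median of all genes at day 26 by -0.11; there Scd1 was at 2.25 and Cidea at -0.45 at day 26. Where leaving out an array left 1 sample in a group, that sample is assumed to vary like the other groups. With the replicate number as a block, 6, 3, 3 and 6 of the 9 differences from sham were above 0 on days 1, 3, 5 and 12, against 5, 5, 7 and 7 without it. No share of all genes is given for the fit with the block. The number of arrays limits the precision.

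Genes passing among all tested numbered 0, 1, 6, 0 and 12 at days 1, 3, 5, 12 and 26, 1 in late minus early, 3 in the mean of days, 4 in the F-test against sham and 0 in the F-test among proton days. They moved by over 1.5 times in the settings that follow; the replicate block left out the sham array of day 3, which has no number, and the samples share only a number. With array weights, 1, 9, 25 and 132 at days 1, 3, 5 and 26, 8 in late minus early, 11 in the mean of days, 63 in the F-test against sham and 38 in the F-test among proton days. With the score of other heart cells as a covariate, 3, 61, 20, 2 and 127 at days 1, 3, 5, 12 and 26, 259 in late minus early, 17 in the mean of days, 129 in the F-test against sham and 90 in the F-test among proton days. With 15 arrays as separate samples, 8, 35 and 52 at days 3, 5 and 26, 11 in late minus early, 8 in the mean of days, 31 in the F-test against sham and 20 in the F-test among proton days. With only the sham of day 1, 2, 1 and 3 at days 3, 5 and 26, 7 in late minus early, 0 in the mean of days, 10 in the F-test against sham and 6 in the F-test among proton days. With no variance trend, 0 and 0 at days 5 and 26, 0 in late minus early, 0 in the mean of days and 0 in the F-test against sham. With only the groups compared in the fit, 22 and 92 at days 5 and 26 and 0 in late minus early. With the replicate number as a block (replicate block), 3 and 0 at days 5 and 26, 2 in late minus early, 0 in the mean of days, 1 in the F-test against sham and 1 in the F-test among proton days. With quantile normalization, 24 at day 26, 3 in late minus early and 5 in the F-test among proton days. With equal array medians, 6 at day 26, 1 in the mean of days and 0 in the F-test against sham. With genes above the median signal, 5 at day 26. With genes above the 75th percentile of signal, 23 at day 26 and 7 in late minus early. With a robust variance, 26 at day 26, 8 in late minus early, 9 in the F-test against sham and 5 in the F-test among proton days. Leaving out each array in turn gave 0 to 1, 1 to 2, 0 to 10, 0 to 1 and 0 to 39 at days 1, 3, 5, 12 and 26, 0 to 14 in late minus early, 0 to 6 in the mean of days, 0 to 15 in the F-test against sham and 0 to 12 in the F-test among proton days.

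Values that changed sign were as follows. With quantile normalization, Adipoq at day 1 was 0.052, Fasn at day 3 was -0.028 and Fasn at day 5 was -0.015. With equal array medians, Adipoq at day 1 was 0.036, Cidea at day 1 was 0.042 and Fasn at day 5 was -0.024. With only the sham of day 1, Adipoq at day 1 was 0.022 and Ucp1 at day 12 was -0.094. With the replicate number as a block (replicate block), Adipoq at day 1 was 0.022, Adipoq at day 3 was -0.14, Fasn at day 3 was -0.049, Adipoq at day 5 was -0.088, Plin1 at day 5 was -0.024, Scd1 at day 5 was -0.11, Fasn at day 5 was -0.087 and Ucp1 at day 12 was -0.094. With the score of other heart cells as a covariate, Retn at day 1 was -0.77, Cidec at day 1 was -0.12, Cidea at day 1 was 0.050, Ucp1 at day 1 was -0.016, Scd1 at day 1 was -0.89, Fasn at day 1 was -0.28, Adipoq at day 5 was -0.012, Scd1 at day 5 was -0.23, Fasn at day 5 was -0.21, Adipoq at day 12 was -0.34, Ucp1 at day 12 was -0.31, Ucp1 in late minus early was -0.018 and Adipoq in mean of days was -0.14. With array weights, Adipoq at day 3 was -0.22, Retn at day 3 was -0.11, Pparg at day 3 was 0.0015 and Fasn at day 3 was -0.16. Leaving out each array in turn gave, where a sign changed, -0.076 to 0.022 for Adipoq at day 1, -0.077 to 0.30 for Retn at day 1, -0.042 to 0.0027 for Cidea at day 1, -0.047 to 0.49 for Scd1 at day 1, -0.34 to 0.52 for Adipoq at day 3, -0.035 to 1.16 for Retn at day 3, -0.21 to 0.051 for Pparg at day 3, -1.09 to 0.37 for Scd1 at day 3, -0.23 to 0.20 for Fasn at day 3, -0.041 to 0.20 for Plin1 at day 5, -0.16 to 0.11 for Pparg at day 5, -0.082 to 0.21 for Fasn at day 5, -0.57 to 1.34 for Adipoq at day 12, -0.15 to 0.28 for Ucp1 at day 12, -0.20 to 0.060 for Pparg at day 12, -0.20 to 0.50 for Ucp1 in late minus early and -0.17 to 0.095 for Pparg in mean of days. The cause was not tested.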
